A study of Mus musculus with 18 samples.

Results

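The strong day 5 responders are 8 mouse genes, Egfl6, Ankrd1, Strip2, Vsig1, Cyp2f2, Dpt, Fap and Edar, out of 18820 genes measured by a probe set with a single gene symbol. They were chosen by their rise of about 2 log2 units or more at 5 days after tamoxifen over vehicle, so that rise is a description here and is not tested. Transcript levels came from Affymetrix Mouse Gene 1.1 ST arrays hybridised with RNA of iMEFs, mouse embryonic fibroblasts transformed with c-Myc, in which the histone methyltransferase gene Ezh2 can be deleted by tamoxifen through the CreERT2 recombinase expressed from ROSA26. The 18 arrays used here form a tamoxifen time course of 8 arrays and a rescue experiment of 10, with 2 arrays in each of the 9 groups.

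All groups came from cells labelled clone C2. The study's methods describe 1 clone grown by limiting dilution from c-Myc iMEFs of the genotype Ezh2 flox/Δ;ROSA26-CreERT2, in which 1 Ezh2 allele is already lost before any treatment. The time course held vehicle-treated cells (ethanol) and cells taken 5, 18 and 32 days after tamoxifen. The rescue experiment held Ezh2 null cells, which had lost Ezh2, Ezh1 pre-rescue and Ezh2 pre-rescue cells, which received a retroviral Flag-tagged Ezh1 or Ezh2 before the deletion, Ezh2 post-rescue cells, which received Ezh2 after it, and control cells that kept their Ezh2. No group received tamoxifen while keeping Ezh2 without a transgene, so an effect of tamoxifen or of active Cre cannot be told apart from an effect of the deletion. The time course held no separate vehicle group for each day, so time in culture cannot be told apart from it either. Overexpression of Ezh1 or Ezh2 without deletion is not analysed here. The study describes its measurements as coming from biological replicates, but neither it nor the labels say whether the 2 arrays of a group came from separate cultures, so each p-value measures only the spread between these arrays.

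Ezh2 and its relative Ezh1 are alternative catalytic subunits of the Polycomb repressive complex PRC2, which methylates lysine 27 of histone H3, and the trimethylated form of that residue marks silent developmental genes. When the enzyme is removed, existing methylation is lost gradually as cells divide. The 8 genes do not form a pathway. Egfl6 and Dpt encode secreted proteins of the extracellular matrix, Fap a protease on the surface of activated fibroblasts, Edar a receptor and Vsig1 an adhesion molecule of the cell membrane, Ankrd1 and Strip2 intracellular regulators, and Cyp2f2 a drug-metabolizing enzyme.

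The arrays of a group resembled each other closely, with Pearson r across genes of 0.998 to 0.999 in the time course and 0.994 to 0.998 in the rescue experiment. Array medians ran from 4.98 to 5.08 in the time course and from 6.16 to 6.27 in the rescue experiment, so the experiments appear to be scaled separately and levels are compared only within each. The Ezh2 probe set averaged 9.40 ± 0.04 in vehicle cells, 9.24 ± 0.06 on day 5, 9.72 ± 0.12 on day 18 and 9.77 ± 0.06 on day 32 (log2, SD, n = 2 each). It did not fall to background in Ezh2 null cells either, with 10.47 ± 0.02 against 10.46 ± 0.14 in control cells, and since its place relative to the deleted exons is not known here, it gives no check of the deletion. The transgenes did show: Ezh1 averaged 11.76 ± 0.12 in Ezh1 pre-rescue cells against 9.66 ± 0.23 in control cells, and Ezh2 averaged 12.05 ± 0.30 in Ezh2 pre-rescue and 12.34 ± 0.30 in Ezh2 post-rescue cells. The cells carried the marker profile of fibroblasts: 9 of 10 markers other than Fap and Dpt lay above the array median at day 5 and in vehicle cells, against 0 of 8 epithelial markers in each of the 9 groups.

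The promoters of 7 of the 8 genes, all but Fap, were in RefSeq's table for GRCm38.p6, each as a window from 250 bases before to 50 bases after the start site. The motifs searched, 4 in number, were sought on both strands, namely TATAAA (a common form of the TATA box), CATTCC (the site of TEAD factors, the DNA-binding partners of YAP and TAZ), TGANTCA (AP-1) and AGGTCA (the single recognition repeat of nuclear receptors). The windows of Ankrd1, Edar, Dpt and Cyp2f2 are shown because they held all of the matches, which are in capitals. They run 5′ to 3′ along the gene's own strand, at chr19:36119795-36120094 (minus strand) for Ankrd1, chr10:58675647-58675946 (minus strand) for Edar, chr1:164796413-164796712 (plus strand) for Dpt and chr7:27119705-27120004 (plus strand) for Cyp2f2.
Ankrd1: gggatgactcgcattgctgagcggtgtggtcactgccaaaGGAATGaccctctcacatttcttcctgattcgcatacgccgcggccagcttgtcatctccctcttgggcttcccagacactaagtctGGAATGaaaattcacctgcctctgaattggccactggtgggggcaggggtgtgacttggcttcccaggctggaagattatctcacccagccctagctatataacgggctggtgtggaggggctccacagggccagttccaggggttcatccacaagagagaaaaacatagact
Edar: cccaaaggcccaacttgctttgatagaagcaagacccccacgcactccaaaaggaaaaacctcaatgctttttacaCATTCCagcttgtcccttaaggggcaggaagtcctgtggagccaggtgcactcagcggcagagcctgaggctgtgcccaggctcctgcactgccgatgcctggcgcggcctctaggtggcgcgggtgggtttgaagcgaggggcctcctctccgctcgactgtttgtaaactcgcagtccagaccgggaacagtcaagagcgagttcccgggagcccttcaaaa
Dpt: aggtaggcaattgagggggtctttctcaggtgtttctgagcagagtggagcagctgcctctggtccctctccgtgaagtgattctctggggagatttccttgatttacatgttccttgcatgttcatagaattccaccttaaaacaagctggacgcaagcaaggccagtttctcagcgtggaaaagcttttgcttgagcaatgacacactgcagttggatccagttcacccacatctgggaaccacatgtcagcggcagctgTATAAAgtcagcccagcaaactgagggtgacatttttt
Cyp2f2: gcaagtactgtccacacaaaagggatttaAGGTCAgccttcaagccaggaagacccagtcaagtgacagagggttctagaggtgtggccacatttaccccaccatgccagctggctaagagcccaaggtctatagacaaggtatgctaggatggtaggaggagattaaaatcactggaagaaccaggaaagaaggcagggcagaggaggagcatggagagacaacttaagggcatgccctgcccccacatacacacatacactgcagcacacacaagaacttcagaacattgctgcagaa

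Ankrd1 is a textbook target of YAP and TAZ, and its window held CATTCC 2 times, both in the reverse orientation, beginning 210 and 123 bases before the start site. Edar held it 1 time, 174 bases before the start. CATTCC occurred in 14.7% of the 32851 promoters of the table. TATAAA (13.6% of promoters) was found in Dpt alone among the 7, beginning 13 bases after the annotated start, and AGGTCA (16.3%) in Cyp2f2 alone, 221 bases before it. The Dpt match lies after the start, so it is not read as a TATA box. Only exact matches were sought, so the related run tatataa before the start of Ankrd1 was not counted. TGANTCA (7.81%) was in none of the 7 windows, and the windows of Egfl6, Strip2 and Vsig1 held none of the 4 motifs. No motif was shared by more than 2 of the 7 genes.

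The 7 promoters also covered a wide span of CpG content, the property that separates CpG island promoters from others. The ratio of observed to expected CpG was 0.793 in Strip2, with 22 CpG in the window, 0.543 in Edar and 0.538 in Egfl6. It was 0.36 in Vsig1, 0.312 in Ankrd1 and 0.226 in Dpt. The window of Cyp2f2 had no CpG. The median over all promoters was 0.384, so 3 of the 7 genes lay above it and 4 below. GC content ran from 43.3% in Vsig1 to 65.3% in Egfl6, around a median of 52.7%.

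**Figure D1:**
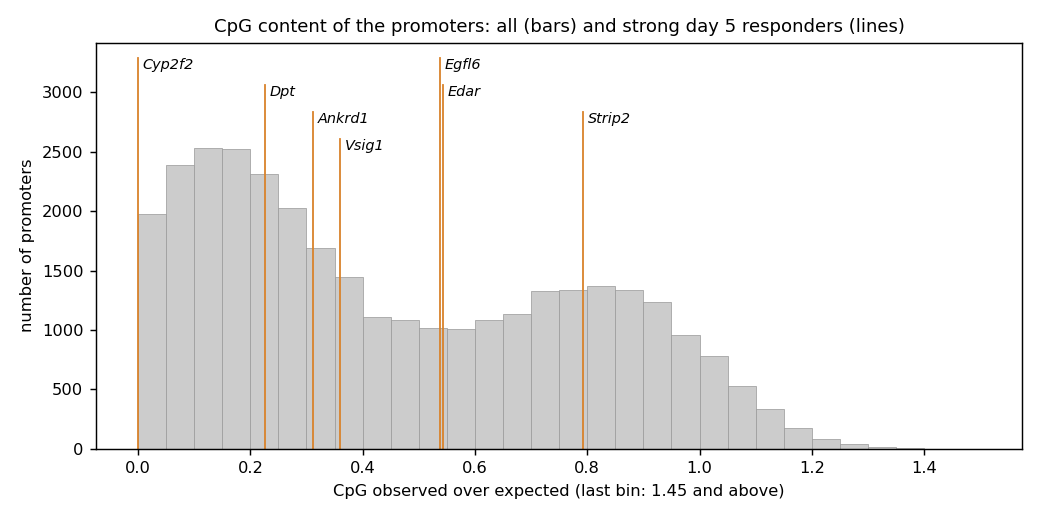
The horizontal axis is the ratio of observed to expected CpG in the 300 bases of each promoter and the vertical axis the number of promoters (grey bars, 32851 in all). The orange lines mark the 7 strong day 5 responders with a promoter in the table, which spread from 0 in Cyp2f2 to 0.793 in Strip2.

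At day 5 all 8 genes were several-fold above vehicle, by construction. Their changes ran from 1.91 for Edar to 3.04 for Egfl6 on the log2 scale, with a median of 2.38, where the median of all genes was -0.01. In all, 12 genes reached 2 log2 units, 7 of them among the 8 named here, with Fap at 2.01 and Dpt at 2.10 just inside. Edar lay just outside at 1.91, between Mfap5 at 1.95 and P2rx7 at 1.875. Over all genes, 11% were called higher at day 5 in limma's fit (adjusted p under 0.05, Benjamini-Hochberg over 18820 genes). That share is given as background only, since the same values chose the 8 genes.

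The question of the later days was whether the day 5 level lasted. For 5 of the 8 genes it was back near vehicle at day 18, for Dpt and Fap part of the rise remained, and for Edar the level was below vehicle. The day 18 and day 32 comparisons use the same vehicle arrays that chose the genes, and the comparison of day 18 with day 5 uses the same day 5 arrays. Both limits apply to each value below that names vehicle or day 5. With whole-culture RNA, a change in how many cells express a gene and a change in the amount per cell cannot be told apart.

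Egfl6 encodes an integrin-binding matrix protein, with EGF repeats, of the hair follicle. It had 3.35 and 3.19 in vehicle cells, 6.38 and 6.25 at day 5, 3.25 and 3.27 on day 18, and 3.08 and 2.85 at day 32 (log2). The day 5 arrays stood far above every other array, and the day 18 arrays fell inside the range of vehicle. The day 18 difference from vehicle was -0.01 ± 0.10 (SE; 95% interval -0.23 to 0.21). At day 32 both arrays were below both vehicle arrays, by 0.31 log2 units (-0.31 ± 0.10, adjusted p = 0.0392). That call was lost without vehicle replicate 1 (-0.23, adjusted p = 0.202), without day 32 replicate 2 (-0.19, adjusted p = 0.262) and without either day 18 array (adjusted p = 0.0578). The order of its levels was day 5, vehicle, day 18 and day 32, and vehicle and day 18 did not differ beyond their spread.

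Ankrd1, an ankyrin repeat protein of heart muscle and a transcriptional cofactor, had 3.70 and 3.58 in vehicle cells, 6.26 and 5.92 at day 5, 3.82 and 3.55 on day 18, and 3.99 and 3.83 at day 32. Vehicle and day 18 arrays overlapped, with a difference of 0.04 ± 0.13 (interval -0.25 to 0.33). Both day 32 arrays lay above both vehicle arrays, but the difference of 0.27 ± 0.13 did not pass (adjusted p = 0.158).

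Strip2, a subunit of the STRIPAK complex that couples the phosphatase PP2A to kinases of the Hippo pathway, had 4.79 and 4.87 in vehicle cells, 7.34 and 7.20 at day 5, 4.62 and 4.74 on day 18, and 4.54 and 4.81 at day 32. Both day 18 arrays were below both vehicle arrays, and the day 32 arrays straddled vehicle replicate 1. The differences from vehicle were -0.15 ± 0.10 at day 18 (interval -0.38 to 0.08) and -0.15 ± 0.10 at day 32 (adjusted p = 0.298).

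Vsig1, an immunoglobulin-domain adhesion molecule of stomach epithelium and testis, had 2.90 and 3.04 in vehicle cells, 5.44 and 5.33 at day 5, 2.90 and 2.75 on day 18, and 2.95 and 2.90 at day 32. In vehicle cells it stood above only 10.8% of genes, near the floor of the arrays, where a fall can hardly be seen. At day 18 it differed from vehicle by -0.15 ± 0.09 (interval -0.34 to 0.05), and at day 32 by -0.04 ± 0.09. Vehicle, day 18 and day 32 did not differ beyond their spread.

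Cyp2f2, the cytochrome P450 of mouse lung club cells that activates naphthalene, had 5.35 and 5.18 in vehicle cells, 7.51 and 7.70 at day 5, 5.40 and 5.44 on day 18, and 4.60 and 4.72 at day 32. The day 18 arrays were just above both vehicle arrays (0.16 ± 0.09, interval -0.05 to 0.36, adjusted p = 0.263). Both day 32 arrays were lower than every other array, with -0.61 ± 0.09 against vehicle (adjusted p = 0.000777) and -0.76 ± 0.09 against day 18 (adjusted p = 0.00284). Its order was therefore day 5, day 18, vehicle and day 32, with day 18 and vehicle not separated.

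Dpt encodes dermatopontin, a matrix protein that binds decorin and speeds collagen fibril formation, and its level stood above 80.2% of all genes already in vehicle cells. It had 8.60 and 8.76 in vehicle cells, 10.85 and 10.72 at day 5, 9.09 and 9.24 on day 18, and 8.96 and 9.16 at day 32. No day 18 or day 32 array reached down to the vehicle arrays. The day 18 level exceeded vehicle by 0.49 ± 0.10 (adjusted p = 0.00629), the day 32 level by 0.38 ± 0.10 (adjusted p = 0.0164), and the later days did not differ from each other (-0.11 ± 0.10). The day 18 call was lost without day 18 replicate 2 (0.41, adjusted p = 0.0546). The day 32 call was lost without vehicle replicate 1 (0.30, adjusted p = 0.107), without day 32 replicate 2 (0.28, adjusted p = 0.126) and when each array was centred on its median (0.26, adjusted p = 0.0556).

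Fap, fibroblast activation protein, is a serine protease of the DPP4 family found on activated and tumour-associated fibroblasts. It had 4.47 and 4.06 in vehicle cells, 6.29 and 6.27 at day 5, 5.66 and 5.38 on day 18, and 4.96 and 4.90 at day 32. Among the 8 genes it was the slowest to come down, and its 4 group ranges did not overlap. It was 1.26 ± 0.13 above vehicle at day 18 (2.39-fold, adjusted p = 0.00012) and 0.67 ± 0.13 above it at day 32 (adjusted p = 0.00383), and both calls held at that threshold under every alternative tried. Its further fall of 0.59 between day 18 and day 32 (-0.59 ± 0.13, adjusted p = 0.0427) was lost when any of the day 5, day 18 or day 32 arrays was left out (adjusted p 0.0609 to 0.267).

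Edar, the receptor of the TNF receptor family for ectodysplasin, through which hair, teeth and sweat glands are induced, had 4.30 and 4.35 in vehicle cells, 6.26 and 6.20 at day 5, 4.02 and 3.72 on day 18, and 3.73 and 3.80 at day 32. All 4 later arrays were below both vehicle arrays. The differences were -0.45 ± 0.10 at day 18 (adjusted p = 0.00836), lost without day 18 replicate 2 (-0.31, adjusted p = 0.0611), and -0.56 ± 0.10 at day 32 (adjusted p = 0.00196). Days 18 and 32 did not differ beyond their spread (-0.10 ± 0.10).

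**Figure D2:**
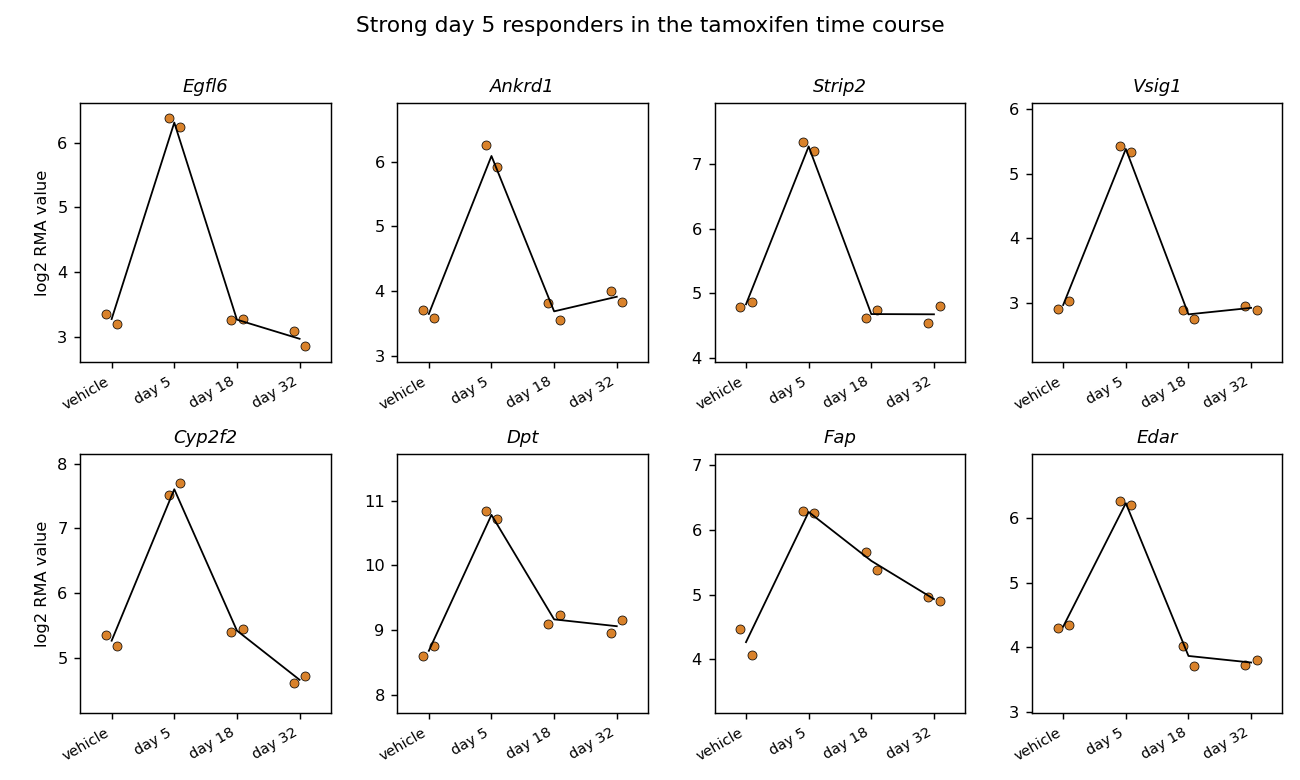
Each panel plots 1 gene, with the group on the horizontal axis (vehicle, then days after tamoxifen) and the log2 RMA value on the vertical axis, all panels spanning 4 log2 units. Points are single arrays (2 per group) and lines join group means. The day 5 arrays peak in each panel and Fap declines in steps. In Edar, Cyp2f2 and, by less, Egfl6, both day 32 arrays lie below both vehicle arrays.

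Counted over the 8 genes, 2 were called higher (Dpt, Fap) and 1 lower (Edar) than vehicle at day 18, where 15.2% of the genes on the arrays passed upward and 10.5% downward. The day 32 counts were 2 higher (Dpt, Fap) and 3 lower (Egfl6, Cyp2f2, Edar), against 18.4% and 14.2% of all genes. Calls thus went in both directions, and with 8 genes these counts are not read as a result about the set. The median change of the 8 was 0.02 at day 18 and -0.10 at day 32, near the medians of all genes of -0.02 at both. All 8 were lower at day 18 than at day 5, by 0.76 (Fap) to 3.05 (Egfl6) log2 units, where 16.1% of all genes were called lower. Since a gene chosen for a high day 5 value is apt to be lower elsewhere, nothing is read from that count. Between day 18 and day 32, neither of which chose the genes, 2 were called lower (Cyp2f2, Fap) against 2.75% of all genes, and 0 higher.

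Centring each array on its median put the median change of all genes against vehicle at -0.15, -0.18 and -0.14 log2 units on days 5, 18 and 32, against -0.01, -0.02 and -0.02 without it. Under that scaling Strip2 (-0.31, adjusted p = 0.0351) and Vsig1 (-0.30, adjusted p = 0.0241) were called lower than vehicle at day 18. No called value changed sign under any scaling. The Egfl6 call at day 32 was lost with quantile normalization (adjusted p = 0.0661) and with limma-trend (adjusted p = 0.0593). When all 18 arrays shared 1 estimate of the spread, the calls against vehicle were lost for Dpt at day 18 (adjusted p = 0.085) and for Egfl6 (0.15), Cyp2f2 (0.0676) and Dpt (0.157) at day 32, as were those of Cyp2f2 (0.151) and Fap (0.115) between day 18 and day 32.

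The rescue experiment asked a different question of the same genes, on arrays that the choice did not use: whether they stood high in cells that had lost Ezh2. None of the 8 was called in Ezh2 null cells against control in limma's fit, and none reached an unadjusted p of 0.05, where 1.95% of all genes were called in either direction. Differences ran from -0.09 (Egfl6) to 0.67 (Cyp2f2) log2 units. Both ends of that range were below the day 5 rises of the same genes in number, but the experiments differ in scale at low levels. Epcam, an epithelial marker, averaged 3.05 in vehicle and 5.29 in control cells, while Vim averaged 12.6 and 13. A rise from a low level could therefore read smaller in the rescue experiment, which was not tested.

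For Egfl6 the Ezh2 null arrays had 5.48 and 5.00 against 5.15 and 5.50 in control cells, overlapping, with a difference of -0.09 ± 0.17 (interval -0.48 to 0.31). Edar had 5.92 and 5.59 in Ezh2 null cells against 5.78 and 5.78 in control cells (-0.03 ± 0.13, interval -0.34 to 0.28). Fap had 5.68 and 5.75 against 5.74 and 5.80 in control cells (-0.06 ± 0.17, interval -0.44 to 0.33). In these 3 genes, and in Vsig1 with 5.43 and 4.65 against 5.11 and 4.88 (0.05 ± 0.22), the Ezh2 null and control arrays overlapped.

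The other 4 genes had both Ezh2 null arrays above both control arrays without passing the test. Strip2 had 5.35 and 5.29 in Ezh2 null cells against 5.17 and 5.09 in control cells (0.19 ± 0.12, adjusted p = 0.517), and Ankrd1 had 5.46 and 5.85 against 5.18 and 5.31 (0.40 ± 0.20, adjusted p = 0.387). Dpt had 9.79 and 10.34 in Ezh2 null cells against 9.69 and 9.43 in control cells (0.50 ± 0.23, interval -0.02 to 1.03, adjusted p = 0.346). The upper end of that interval lies below the day 5 change of Dpt, which was measured on the scale of the other experiment.

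Cyp2f2 had 7.17 and 6.22 in Ezh2 null cells against 6.02 and 6.03 in control cells. Its Ezh2 null arrays disagreed by almost 1 log2 unit, and the difference of 0.67 ± 0.29 (interval -0.004 to 1.34) had an adjusted p of 0.327. Without Ezh2 null replicate 2 it was 1.24 (adjusted p = 0.0279), and without Ezh2 null replicate 1 it was 0.10 (adjusted p = 0.808). The value therefore rests on which of the 2 arrays is kept.

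The difference in Ezh2 null cells was set against that at day 32, the longest time without the enzyme in the time course, by an interaction over all 18 arrays. Of the 8 genes, 1 passed: for Cyp2f2 the Ezh2 null difference exceeded the day 32 difference by 1.27 ± 0.33 (adjusted p = 0.0308), where 8.12% of all genes were called in either direction. The call was lost without vehicle replicate 1 or 2, day 32 replicate 1 or 2, or control replicate 1 (1.19 to 1.36, adjusted p 0.055 to 0.112), and without Ezh2 null replicate 1 the value was 0.70 (adjusted p = 0.0456). Fap (-0.72 ± 0.23, adjusted p = 0.0786) and Edar (0.53 ± 0.18, adjusted p = 0.0868) did not pass. Fap passed without vehicle replicate 1 (-0.93, adjusted p = 0.0499) and Edar without Ezh2 null replicate 2 (0.75, adjusted p = 0.0142). How many days after tamoxifen the Ezh2 null cells were taken is not used here. Experiment, with its different scale at low levels, and treatment schedule cannot be told apart in this comparison.

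**Figure D3:**
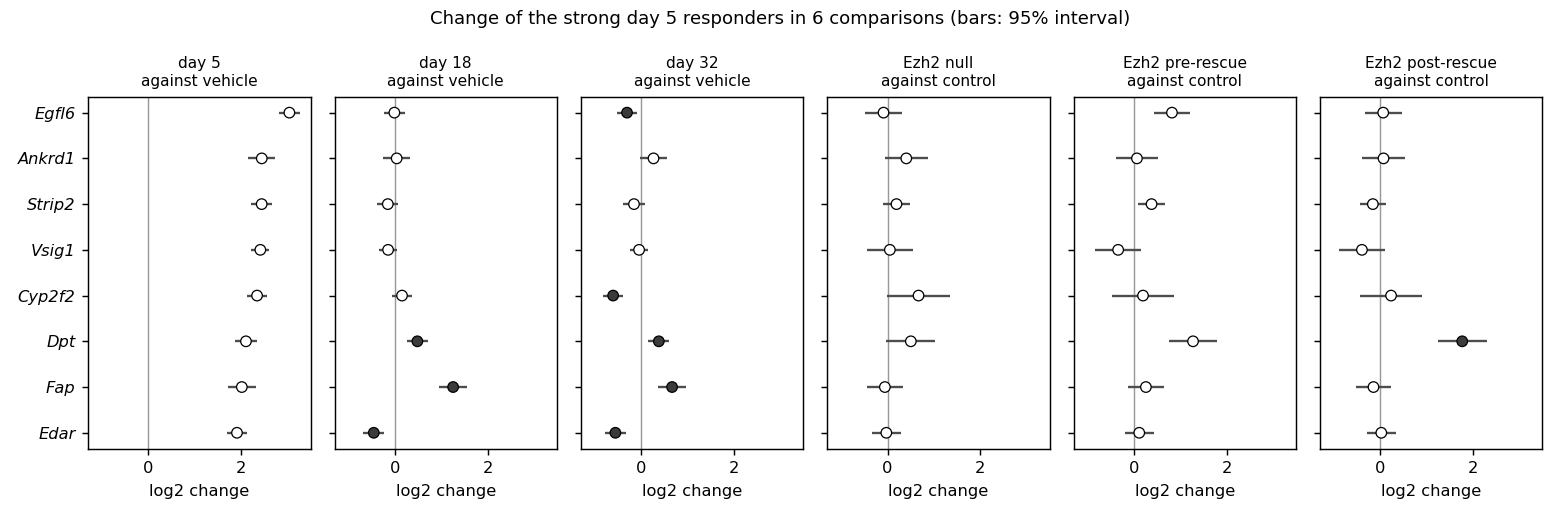
Log2 change of each gene (horizontal axis) in 6 comparisons, with 95% intervals as bars. Filled points passed an adjusted p of 0.05 in limma's fit and open points did not, except that the day 5 panel, which chose the genes, is drawn open throughout. The day 5 points all lie at 1.91 or above, and those of Ezh2 null against control all lie between -0.09 and 0.67. The time course and the rescue experiment differ in scale at low levels.

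Dpt had the widest span of the 8 genes in the rescue experiment. Its Ezh2 null arrays read 9.79 and 10.34, the Ezh1 pre-rescue arrays 10.62 and 10.31, the Ezh2 pre-rescue arrays 10.995 and 10.68 and the Ezh2 post-rescue arrays 11.15 and 11.51, against 9.69 and 9.43 in control cells. Every array of the 4 altered groups lay above both control arrays, and the Ezh2 post-rescue arrays lay above all the others. Ezh2 post-rescue exceeded control by 1.77 ± 0.23 (3.41-fold, adjusted p = 0.0198), and Dpt was the only one of the 8 genes called higher there, where 0.51% of all genes were. That call was lost without control replicate 2 (1.60, adjusted p = 0.0542), Ezh2 post-rescue replicate 1 (1.99, adjusted p = 0.111) or Ezh2 post-rescue replicate 2 (1.55, adjusted p = 0.147).

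Against Ezh2 null cells, Ezh2 post-rescue cells had 1.27 ± 0.23 more Dpt (adjusted p = 0.0658), and none of the 8 genes was called there (2 at an unadjusted p under 0.05, Dpt and Strip2), where 0.6% of all genes were called in either direction. Dpt was called there in 7 of the alternatives, with an adjusted p of 0.00241 to 0.0455, among them those without control replicate 1, control replicate 2 (0.0455 in both) or Ezh2 null replicate 2 (1.61, 0.0438). Dpt was 0.90 ± 0.23 above control in Ezh1 pre-rescue cells (adjusted p = 0.283) and 1.28 ± 0.23 above it in Ezh2 pre-rescue cells (adjusted p = 0.23). These comparisons share the control or the Ezh2 null arrays. Dpt was also the only one of the 8 whose group means spanned 1 log2 unit or more in both experiments, by 2.10 in the time course and by 1.77 in the rescue experiment.

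Egfl6 separated the pre-rescue cells from the rest. The Ezh1 pre-rescue arrays had 6.22 and 6.05 and the Ezh2 pre-rescue arrays 6.20 and 6.10, with 5.38 and 5.40 in Ezh2 post-rescue cells and 5.48 and 5.00 in Ezh2 null cells, against 5.15 and 5.50 in control cells. The 4 pre-rescue arrays did not overlap with the other 6. Against Ezh2 null cells the difference was 0.89 ± 0.17 with Ezh1 (1.86-fold, adjusted p = 0.0475, where 0.861% of all genes were called higher) and 0.91 ± 0.17 with Ezh2 (1.88-fold, adjusted p = 0.0262, where 3.15% were).

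Both of these Egfl6 calls were lost without Ezh2 null replicate 2 (0.64, adjusted p = 0.188, with Ezh1, and 0.65, adjusted p = 0.12, with Ezh2), without either Ezh2 pre-rescue array and without either Ezh2 post-rescue array. The call with Ezh1 was also lost without either Ezh1 pre-rescue array. Over all these the adjusted p ran from 0.0605 to 0.262. Egfl6 was the only one of the 8 called in either comparison, while Cyp2f2 was called lower in Ezh2 pre-rescue than in Ezh2 null cells without Ezh2 null replicate 2 (-1.04, adjusted p = 0.0407).

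Against control cells, Egfl6 was higher by 0.81 ± 0.17 after Ezh1 pre-rescue (adjusted p = 0.232) and by 0.82 ± 0.17 after Ezh2 pre-rescue (adjusted p = 0.239). None of the 8 genes was called in either, with 3 at an unadjusted p under 0.05 in each (Egfl6, Strip2, Dpt). Few genes could be called in these at all: 0.0106% of all genes, in either direction, passed for Ezh1 pre-rescue and 0% for Ezh2 pre-rescue, with 1837 and 1928 genes at an unadjusted p under 0.05. Without control replicate 2 Egfl6 was called in both, at 1.07 (adjusted p = 0.0233) and 1.09 (adjusted p = 0.0243).

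The remaining genes had no call among the rescue groups in limma's fit, and their group means spanned from 0.14 (Edar) to 0.67 (Cyp2f2) log2 units. Strip2 stood at 5.63 and 5.56 with Ezh1 pre-rescue, at 5.49 and 5.53 with Ezh2 pre-rescue and at 4.78 and 5.16 with Ezh2 post-rescue, against 5.17 and 5.09 in control cells. Its pre-rescue arrays were the highest of the 10, by 0.46 ± 0.12 (adjusted p = 0.295) and 0.38 ± 0.12 (adjusted p = 0.368) over control. Ankrd1 stood at 5.52 and 5.05 with Ezh1 pre-rescue, at 5.52 and 5.11 with Ezh2 pre-rescue and at 5.35 and 5.28 with Ezh2 post-rescue, around the control values of 5.18 and 5.31, and its group means lay within 0.41 log2 units of each other.

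Edar barely varied, with all 10 arrays between 5.59 and 6.02 and group means within 0.14 log2 units of each other. Cyp2f2 stood at 6.33 and 6.38 with Ezh1 pre-rescue, at 6.13 and 6.31 with Ezh2 pre-rescue and at 5.9965 and 6.52 with Ezh2 post-rescue, against 6.02 and 6.03 in control cells. Only the Ezh2 post-rescue arrays of Cyp2f2 overlapped with control, and the differences of 0.33 ± 0.29, 0.20 ± 0.29 and 0.23 ± 0.29 did not pass (adjusted p 0.835 to 0.909).

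Vsig1 stood at 4.93 and 4.88 with Ezh1 pre-rescue, at 4.52 and 4.79 with Ezh2 pre-rescue and at 4.56 and 4.63 with Ezh2 post-rescue, against 5.11 and 4.88 in control cells, with no call. Fap stood at 6.37 and 5.88 with Ezh1 pre-rescue, at 6.25 and 5.82 with Ezh2 pre-rescue and at 5.58 and 5.68 with Ezh2 post-rescue, against 5.74 and 5.80 in control cells. All 4 pre-rescue arrays of Fap were above the control arrays, by 0.35 ± 0.17 (adjusted p = 0.557) and 0.26 ± 0.17 (adjusted p = 0.675) on average.

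**Figure D4:**
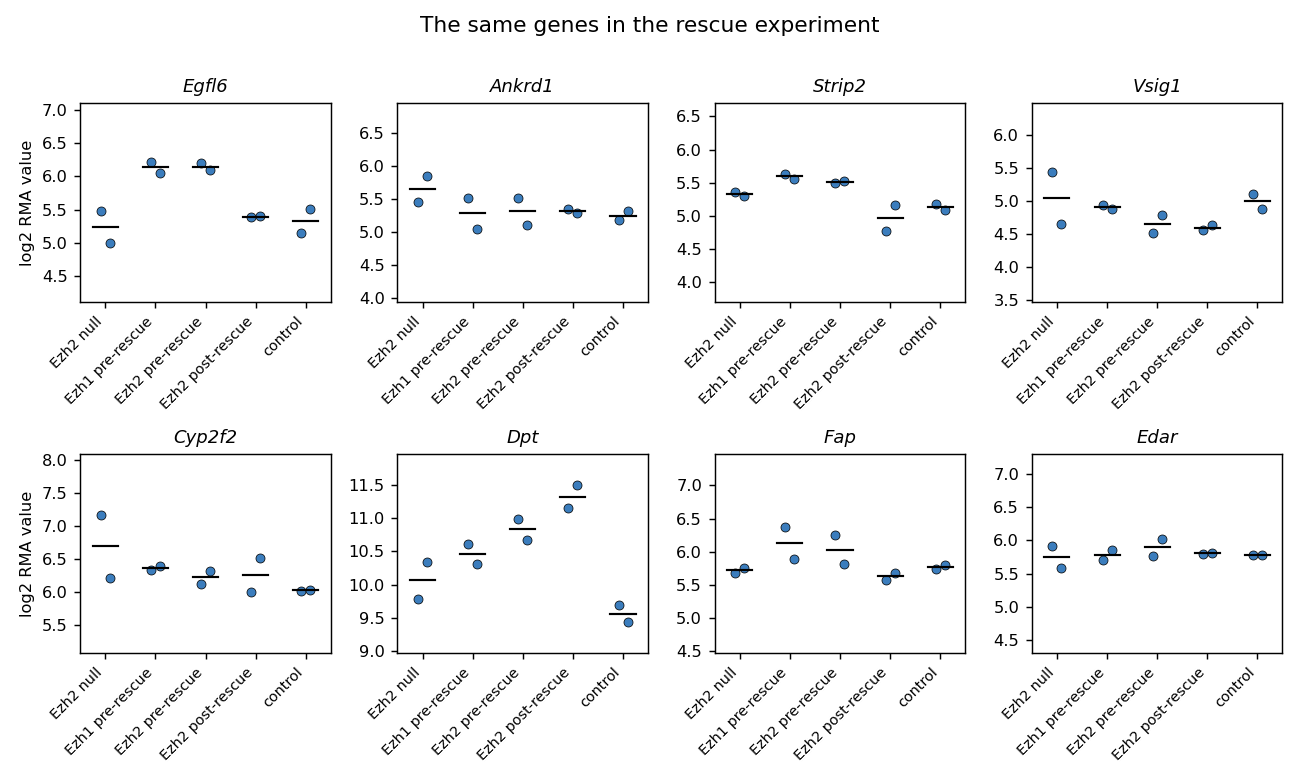
Each panel plots 1 gene, with the 5 groups of the rescue experiment on the horizontal axis and the log2 RMA value on the vertical axis, all panels spanning 3 log2 units. Points are single arrays (2 per group) and bars are group means. Dpt is lowest in control and highest in Ezh2 post-rescue cells, Egfl6 is highest in both pre-rescue groups, and the Ezh2 null arrays of Cyp2f2 and Vsig1 stand apart from each other.

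The genes next to the 8 on the chromosome changed less at day 5, nearly by construction. Only 13 genes rose more than Edar, and the same arrays chose the 8. The nearest measured gene on each side of the 8 gave 16 neighbours, of which 7 were called higher and 2 lower at day 5 over vehicle and 7 were not called, where 11% of all genes were called higher and 5.72% lower. The largest change was 1.23 ± 0.08 for Atp1b1, a subunit of the sodium pump, which was also higher at day 18 (1.72 ± 0.08). Atp1b1 lies 338 kb from Dpt, and distances to the neighbours ran from 4.4 kb (Tceanc) to 621 kb (Tmsb4x), both beside Egfl6. Ifih1, a sensor of double-stranded RNA, lies 20.1 kb after Fap and was 1.15 ± 0.08 higher at day 5, while Gcg, the glucagon gene 17.3 kb on the other side, was at -0.01 ± 0.08.

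Both neighbours of Edar were called higher, Sh3rf3 by 0.89 ± 0.07 and Ccdc138 by 0.64 ± 0.12. Both neighbours of Ankrd1 were too, by 0.47 ± 0.07 (Pcgf5, which encodes a Polycomb protein) and 0.27 ± 0.07 (Rpp30). Strip2 lies between Ahcyl2 (0.67 ± 0.08) and Nrf1 (-0.26 ± 0.07), called in opposite directions. The P450 genes beside Cyp2f2, Cyp2a12 (-0.01 ± 0.10) and Cyp2t4 (0.04 ± 0.14), were not called, nor were Tceanc and Tmsb4x beside Egfl6. The 8 genes lie on 7 chromosomes, with Egfl6 (chrX:166523007-166585716) and Vsig1 (chrX:140907608-140939472) both on X, Strip2 at chr6:29916976-29959681 and Fap at chr2:62500936-62575509 (GRCm38.p6).

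**Figure D5:**
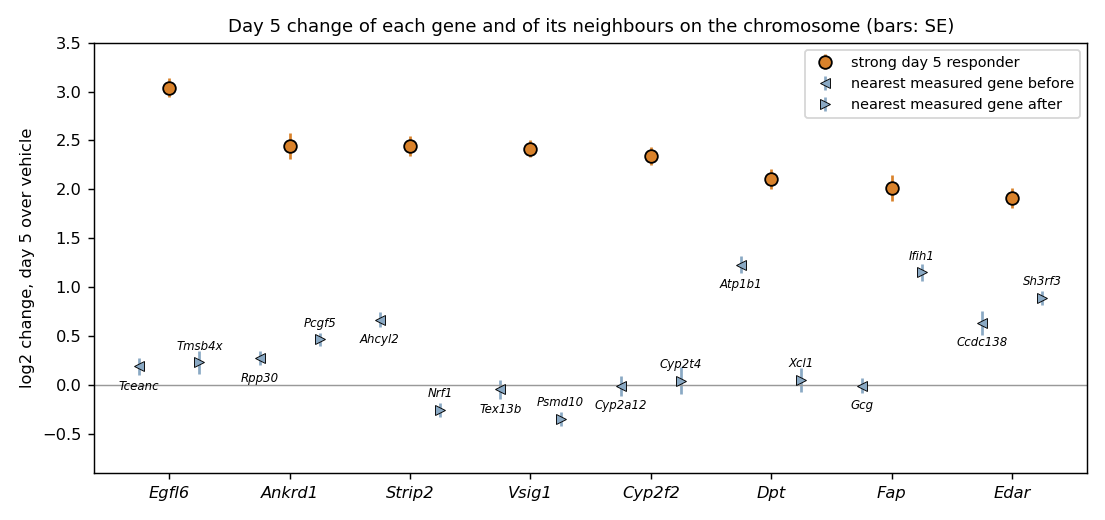
Log2 change at day 5 over vehicle (vertical axis, bars are SE) for each strong day 5 responder (circle) and for the nearest measured gene before and after it on the chromosome (triangles). The responders lie at 1.91 or above because they were chosen for it, and none of the 16 neighbours exceeds 1.23.

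The families of Cyp2f2, Strip2, Vsig1, Egfl6 and Fap are set here beside the shares of all genes at day 5, 11% higher and 5.72% lower. The other Cyp2 genes (45 measured) had 2 higher and 0 lower, Cyp2b13 (0.88 ± 0.13) and Cyp2u1 (0.54 ± 0.12), with a median of -0.05. Of 16 other STRIPAK subunits measured, none was higher and 2 were lower, Ppp2r1b (-0.35 ± 0.08) and Stk24 (-0.26 ± 0.07). Of 13 other members of the VSIG and CTX family of adhesion molecules, 0 were higher and 1 lower (Clmp, -0.37 ± 0.07). None of 9 other EGF-repeat matrix proteins and integrin receptors was called, and of 8 other prolyl peptidases of the DPP4 kind 1 was, the lysosomal Dpp7 (0.57 ± 0.08). In each list the 8 genes themselves are left out, and the median of all genes at day 5 was -0.01.

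The genes tied to Ankrd1, Dpt and Edar were read against the same shares. Of 22 other targets of YAP and TAZ, 11 were higher and 1 lower at day 5 (median 0.27), led by Ccdc80 (1.37 ± 0.09), Nuak2 (1.08 ± 0.08) and Ajuba (0.98 ± 0.08). Of the 8 genes for YAP, TAZ, TEAD and their cofactors, 2 were higher (Wwtr1, which encodes TAZ, 0.49 ± 0.12, and Tead3, 0.32 ± 0.07) and 1 lower (Tead4, -0.67 ± 0.14). Of 6 partners of dermatopontin, 4 were higher and 1 lower, with Col1a1 (0.79 ± 0.10) and Col3a1 (0.77 ± 0.08) up and Tgfb1 (-0.55 ± 0.11) down. In the pathway of Edar, 3 of 15 other genes were higher and 0 lower, among them the NF-κB subunits Nfkb2 (0.66 ± 0.08) and Relb (0.57 ± 0.07).

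At day 18, when 15.2% of all genes were higher and 10.5% lower than vehicle, 5 of the 22 YAP and TAZ targets were higher and 9 lower (median -0.20), with Foxf2 at 1.42 ± 0.13 and Tgfb2 at -0.97 ± 0.11. Of the 6 partners of dermatopontin, 2 were higher and 3 lower, with decorin (Dcn), the collagen-binding partner, at -2.11 ± 0.07, so Dpt and Dcn moved in opposite directions. At day 32 Dcn was at -2.89 ± 0.07. In Ezh2 null cells against control 1 gene of all these lists was called, the YAP target Nuak2 (0.66 ± 0.11, adjusted p = 0.0317). The share of all genes called there was 1.95% in either direction, so this call is not read as a result about its list.

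Lung, stomach and muscle, where some of these genes are best known, had their other markers below the array median at day 5. The lung club cell markers Scgb1a1 and Scgb3a2 averaged 3.28 and 2.58 at day 5, and 3.29 and 2.55 in vehicle cells. Sftpc and Foxj1, markers of other lung epithelial cells, averaged 3.38 and 3.71 at day 5, and 3.32 and 3.62 in vehicle cells. All 4 lay below the array medians, and none was called at day 5. Of the 5 gastric markers other than Vsig1 and of 7 muscle markers, 0 were called at day 5. The shares of all genes called there were 11% higher and 5.72% lower, so 0 in so few genes is not read as a result. In vehicle cells 1 of the muscle markers lay above the array median. Of the muscle markers, 2 were called higher and 0 lower than vehicle at day 18, and the same at day 32. The shares of all genes called higher were 15.2% and 18.4%. Of the 10 fibroblast markers other than Fap and Dpt, 5 were higher and 1 lower at day 5, against 11% and 5.72% of all genes. Their mean lay 3.41 to 3.45 log2 units above the array median at day 5 and 3.47 to 3.48 above it in vehicle cells. That mean joins markers that moved apart. From vehicle to day 5 Col1a1 went from 7.23 to 8.01 and Col3a1 from 8.35 to 9.13, but S100a4 from 9.4 to 7.83. On day 18 the mean was 2.78 to 2.82 and on day 32 it was 2.48 to 2.54, below vehicle on the days when Fap and Dpt stood above vehicle. At day 18, 1 of the 10 was called higher and 4 lower, with Dcn going from 10.9 to 8.82 and Lum from 7.69 to 5.09.

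The genes whose pattern came closest were found by Pearson r over the 18 arrays, after the mean of each experiment was taken from each gene, among about 399 genes spanning 1 log2 unit or more in both experiments. These r share the arrays that chose the 8 genes and are descriptions. Of the 8 genes themselves only Dpt met that span. Genes with a day 5 peak and flat levels in the rescue experiment were therefore not among the candidates. Pawr, a regulator of cell death, was nearest to Strip2 (r = 0.919) and among the nearest 2 of Egfl6 (0.886) and Vsig1 (0.851). Serpinb5, the serpin maspin, was near Vsig1 (0.862) and Strip2 (0.894), and Lvrn, an aminopeptidase, near Egfl6 (0.89).

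Jag1, a Notch ligand, was near Ankrd1 (0.85) and Cyp2f2 (0.822). Several of the closest genes are induced by interferon, namely Mx2 for Cyp2f2 (0.835), Oasl2 (0.845) and Mx2 (0.843) for Edar and Trim30a for Dpt (0.766). Mx2 was 1.48 higher at day 5 and lower than vehicle by 1.53 at day 18 (-1.53), a deeper fall than that of Edar. Dpt was nearest to Igfbp4 (0.825), which binds insulin-like growth factors and which was also 1.89 higher in Ezh2 post-rescue than in control cells. Among these candidates Fap had the loosest likeness, with the aggrecan-degrading protease Adamts5 at 0.743, itself 1.44 higher at day 5 and 0.90 higher at day 18.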

How the data were processed

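The authors deposited log2 expression values per probe set, made from Affymetrix Mouse Gene 1.1 ST arrays by RMA in oligo. Per their methods a linear model in limma removed a batch between first and second replicates of the rescue experiment, and whether the deposited values carry it could not be settled. Of 28440 probe sets, 21217 had 1 gene symbol in the platform annotation, giving 18820 genes (the probe set with the highest mean per gene, and 1 probe set for each of the 8). Two-sided contrasts came from lmFit and eBayes (limma 3.58.1, R 4.3.3), in 1 fit per experiment, with the replicate number as a block in the rescue experiment and with Benjamini-Hochberg adjustment over all genes. The methods' RankProduct test was replaced by limma. The script was tested on simulated data. Other genes were named by fixed rules: nearest neighbours, closest patterns, the day 5 threshold and, from each list, up to 3 genes with the smallest adjusted p. The 8 genes and the lists were chosen with earlier results of these data known. Alternatives covered the block, scaling, a filter on low values, probe set averaging, limma-trend, 1 fit of all arrays, each array left out and the methods' thresholds.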

Additional observations from a re-analysis of the deposited data

Results flagged for a closer look

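For Cyp2f2, the P450 of lung club cells, the difference of Ezh2 null from control cells exceeded that of day 32 from vehicle by 1.27 log2 units in the test of the difference itself. Its Ezh2 null arrays were at 7.17 and 6.22 against 6.02 and 6.03 in control cells, while its day 32 arrays were at 4.60 and 4.72 against 5.35 and 5.18 in vehicle cells. The share of the disagreement between the Ezh2 null arrays in this difference was not tested beyond leaving each of them out. The experiments also differ in scale at low levels.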

How the results depend on the processing

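Day 5 against vehicle and day 18 against day 5 hold the day 5 arrays that chose the genes. Of the 88 other values (the 8 genes in 11 comparisons), 14 were called, and 3 of these passed under every alternative: Fap at days 18 and 32 and Edar at day 32 against vehicle. No called value was reversed. The median day 5 change was 2.23 after median centring, against 2.38. At the methods' thresholds (adjusted p under 0.15 and at least 2-fold) the called genes were 1 at day 18 and 0 at day 32 against vehicle, 0 at day 32 against day 18, 0 for both pre-rescues and 1 for Ezh2 post-rescue against Ezh2 null. Median centring gave 5 at day 18 against vehicle, 1 at day 32 against day 18 and 1 in Ezh2 post-rescue against Ezh2 null. With all 18 arrays in 1 fit the counts were 2 at day 32 against vehicle, 0 at day 32 against day 18, 2 for each pre-rescue against control, 2 in Ezh2 pre-rescue and 1 in Ezh2 post-rescue against Ezh2 null. With limma-trend 1 was called in Ezh2 post-rescue against Ezh2 null. The cause of these shifts was not tested.

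Leaving out each array in turn gave counts of 1 to 3 at day 18 and 3 to 5 at day 32 against vehicle, and 1 to 2 at day 32 against day 18. It gave 0 to 1 in Ezh2 null against control, in each rescue against control and in each rescue against Ezh2 null, and 0 to 2 in the interaction. The arrays concerned are named beside each result above.

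Same-numbered arrays correlated in their deviations by -0.07 to 0.055 in the time course, which shows no sign of pairing there. The range was -0.43 to 0.54 in the rescue experiment, which cannot decide on pairing. Values already corrected for a batch would have lost any shared deviation, and whether they were corrected is not known. The rescue fit kept the replicate number as a block because the methods state a batch between first and second replicates. With the replicate block in the time course Ankrd1 was called higher at day 32 (0.27, adjusted p = 0.0408), giving 6 genes. Without the block in the rescue experiment, Dpt was called in Ezh2 post-rescue against Ezh2 null (1.27, adjusted p = 0.033), giving 1 gene. The block changed no other call.

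Over all genes, calls of at least 2-fold varied by over 1.5 times in the rescue experiment: 158 in Ezh2 null against control (115 to 310 without 1 array, 246 in 1 fit), 2 in Ezh1 pre-rescue (0 to 143, 36), 0 in Ezh2 pre-rescue (0 to 139, 15) and 86 in Ezh2 post-rescue (21 to 151, 156). Against Ezh2 null they were 109 in Ezh1 pre-rescue (14 to 328, 212), 226 in Ezh2 pre-rescue (13 to 434) and 48 in Ezh2 post-rescue (3 to 128, 99), and 336 in the interaction (242 to 571). A filter on the 30% of genes with the lowest means kept 7 of the 8 genes and dropped Vsig1, which has no values under it. With 2 arrays per group the number of arrays limits the precision, and levels near the floor of the array, as for Vsig1 and Egfl6, bound falls poorly.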
